A study of Homo sapiens with 6 samples.

Results

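Collagens are the family of triple-helical proteins of the extracellular matrix, and the genes that encode their chains are named COL, a type number, the letter A and a chain number. Matching that pattern against the gene symbols of the deposited tables found 44 collagen chain genes among the 19684 genes with an Ensembl identifier. All 44 were listed in the 6 library tables and in the separate table of group values. They are described here for K1, a cell line from papillary thyroid carcinoma (PTC), the commonest cancer of the thyroid follicular cell. Sequencing of mRNA was done on 3 libraries of K1 cells transfected with negative control (NC) siRNA and on 3 libraries of K1 cells transfected with si-NEAT1_2, an siRNA against the long isoform of the nuclear RNA NEAT1. The comparison asks which genes change when NEAT1_2 is knocked down. All libraries come from the same cell line, no untransfected cells were included, and NEAT1 was not analysed here, so the knockdown itself was not measured in these libraries. The sources do not say whether the 3 libraries of a group come from separate cultures, so p-values measure only the spread between these libraries, which may be technical.

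A collagen molecule is made of 3 chains wound around each other, and every chain carries long runs with glycine at regular intervals. Fibrillar collagens assemble into the fibrils of connective tissue, type IV collagen forms the network of basement membranes on which epithelial cells such as thyrocytes sit, type VI forms beaded microfibrils, and fibril-associated collagens (FACIT) decorate fibril surfaces. Type VII anchors basement membranes to the stroma beneath, transmembrane collagens sit in the cell membrane, and multiplexins carry interrupted helices and heparan sulphate or chondroitin sulphate chains. Chains are hydroxylated, folded and trimmed by dedicated enzymes, crosslinked outside the cell by lysyl oxidases, and recognized by integrins and discoidin domain receptors.

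Type IV chain genes lie in head-to-head pairs, and they also held the highest collagen levels in K1 cells. The start regions of COL4A1, COL4A3 and COL4A5, a gene of each pair, are therefore shown first. Among these regions only that of COL4A1 holds the start of its partner. Each sequence runs 5′ to 3′ on the strand of the named gene, from 250 bases before to 50 bases after the start RefSeq gives on GRCh38.p14, and capitals mark matches on either strand to GGGCGG (the GC box), CCAAT (the CCAAT box) or TATAAA (the TATA box).
COL4A1: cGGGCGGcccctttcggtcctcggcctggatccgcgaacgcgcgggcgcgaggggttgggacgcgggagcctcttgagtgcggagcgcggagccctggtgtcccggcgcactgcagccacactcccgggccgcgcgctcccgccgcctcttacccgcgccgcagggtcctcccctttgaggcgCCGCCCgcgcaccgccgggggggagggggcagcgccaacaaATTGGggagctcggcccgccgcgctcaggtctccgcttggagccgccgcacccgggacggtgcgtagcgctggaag
COL4A3: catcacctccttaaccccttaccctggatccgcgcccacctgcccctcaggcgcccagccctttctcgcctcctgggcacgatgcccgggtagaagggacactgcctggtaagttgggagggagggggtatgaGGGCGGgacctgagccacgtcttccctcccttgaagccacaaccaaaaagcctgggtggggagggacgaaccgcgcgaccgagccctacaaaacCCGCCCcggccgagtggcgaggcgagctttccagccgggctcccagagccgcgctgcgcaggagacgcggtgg
COL4A5: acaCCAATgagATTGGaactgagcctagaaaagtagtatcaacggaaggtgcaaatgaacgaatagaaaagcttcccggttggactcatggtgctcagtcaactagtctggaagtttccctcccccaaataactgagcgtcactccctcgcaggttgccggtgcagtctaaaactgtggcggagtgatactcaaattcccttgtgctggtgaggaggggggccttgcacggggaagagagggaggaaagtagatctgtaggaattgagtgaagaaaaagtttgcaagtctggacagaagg
The COL4A1 window is chr13:110307108-110307407 on the minus strand, and the start of COL4A2 on the plus strand lies inside it, at position 124, with 127 bases between the starts. In the GENCODE release 29 annotation COL4A1 (minus strand, 110148963 to 110307233) and COL4A2 (plus strand, 110305812 to 110513209) overlap by 1422 bases. Whether counting used the strand is not stated in the sources used here, so reads in that overlap could have gone to either gene. The COL4A3 window is chr2:227164374-227164673 on the plus strand, and COL4A4 starts 419 bases away on the minus strand. For COL4A5 the window is chrX:108439588-108439887 on the plus strand, with the nearer of the COL4A6 starts 380 bases away on the minus strand. None of these 3 windows held TATAAA, the COL4A1 window held both a CCAAT and GC boxes, the COL4A3 window only GC boxes and the COL4A5 window only CCAAT boxes. The RefSeq table had 44 windows for 32 of the 44 genes. TATAAA was in 8 of the 44 windows and in 11.5% of all 35116 windows, CCAAT in 14 and in 34.6%, and GGGCGG in 24 and in 45.0%. A match is only a match of letters in the window.

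The libraries held between 22798631 and 27066025 expected counts each, and 12581 genes had enough counts to be tested. Of all genes, none reached an adjusted p under 0.05, the smallest being 0.0675 (edgeR quasi-likelihood test, Benjamini-Hochberg adjustment), while 1419 were higher and 1663 lower in si-NEAT1_2 at an unadjusted p under 0.05. The libraries least like the others were si-NEAT1_2 replicate 2 and NC replicate 2. The thyrocyte markers did not all bear out the label: PAX8, FOXE1 and TG had a mean FPKM of at least 1, while TSHR, NKX2-1 and SLC5A5 were at or near 0. Of 6 epithelial markers, 4 were at 1 FPKM or more, with KRT8 at 1149 to 1586 FPKM and CDH1 at 0.08 to 0.38 FPKM. Of 6 fibroblast markers, 1 had a mean of at least 1 FPKM (LUM, at 16.2 to 25.04 FPKM), none of 4 endothelial markers did, and 1 of 4 leukocyte markers did (CD68).

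K1 cells expressed 17 of the 44 collagen chains, counting a chain as expressed at a mean of at least 1 FPKM (fragments scaled for transcript length and library size, so that levels of different genes can be compared per length). The same count of 17 was reached in the NC group and in the si-NEAT1_2 group. Of the others, 7 had a mean between 0.1 and 1 FPKM and 20 a mean under 0.1 FPKM. COL9A1 and COL20A1 had 0 counts in every library, which allows up to 3 counts, or 0.111 to 0.132 CPM (counts scaled to library size). By mean FPKM over the 6 libraries, COL4A2 ranked 513 and COL4A1 ranked 805 among all genes, and no collagen was among the 100 highest.

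**Figure D1:**
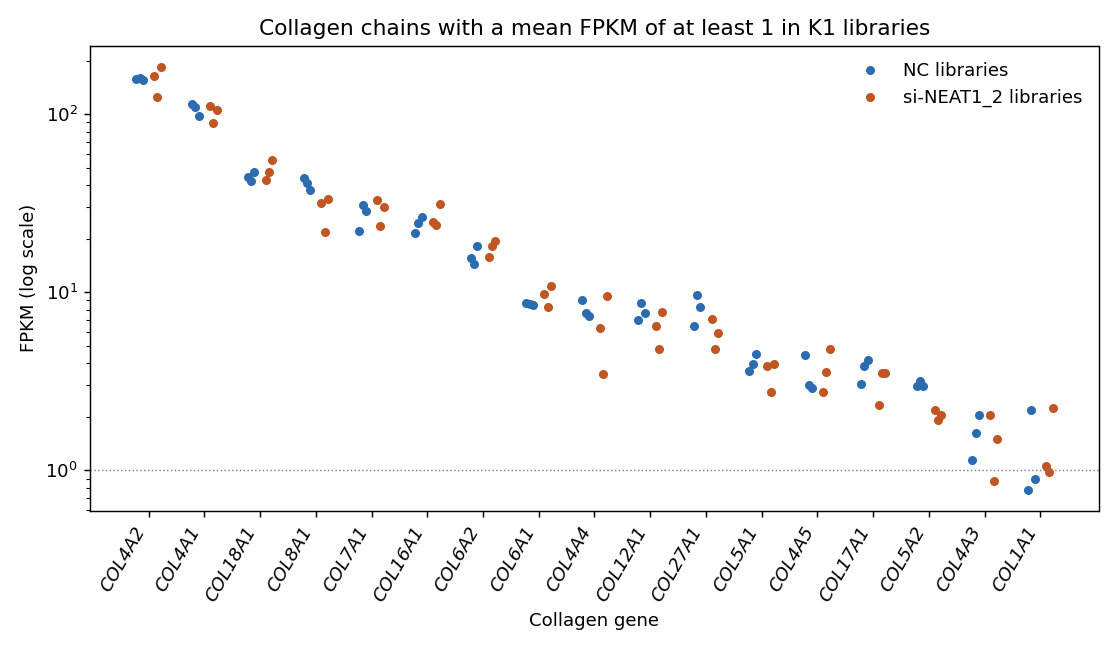
Each point is the FPKM of a collagen gene in 1 library (log scale), for the 17 genes with a mean of at least 1 FPKM, ordered by mean, with NC libraries in blue, si-NEAT1_2 libraries in orange and the dotted line at 1 FPKM. COL4A2 and COL4A1 sit highest, from 89.0 to 184 FPKM, and only COL8A1 and COL5A2 have all si-NEAT1_2 points below all NC points.

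Type IV collagen made up most of the collagen mRNA. Its 6 chains took 57.3% to 61.0% of the summed collagen FPKM in each library. The COL4A2 chain stood at 158, 160 and 157 FPKM in the NC libraries and at 164, 125 and 184 FPKM in the si-NEAT1_2 libraries. The COL4A1 chain, which joins it in the commonest basement membrane trimer, stood at 114, 110 and 97.7 FPKM in NC and at 111, 89.0 and 106 FPKM in si-NEAT1_2. For both chains the groups overlapped and the lowest of the 6 values was that of si-NEAT1_2 replicate 2. COL4A2 was above COL4A1 in every library, by 1.38 to 1.73 times; the trimer itself takes more alpha1 than alpha2 chains.

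The chains of the specialised type IV networks, known from the kidney and other selected basement membranes, were lower and unequal within each head-to-head pair. COL4A4 was at 9.0, 7.66 and 7.35 FPKM in NC and at 6.31, 3.50 and 9.59 FPKM in si-NEAT1_2, and its partner COL4A3 was at 1.14, 1.62 and 2.06 FPKM in NC and at 2.04, 0.87 and 1.5 FPKM in si-NEAT1_2. COL4A4 therefore exceeded COL4A3 by 3.09 to 7.89 times, most in NC replicate 1 and least in si-NEAT1_2 replicate 1. Part of this range comes from the transcript length implied by the ratio of count to FPKM. In these 2 libraries it was 6909 and 9711 bases for COL4A4, and 8070 and 6463 bases for COL4A3. COL4A5 was at 4.44, 3.03 and 2.92 FPKM in NC and at 2.74, 3.56 and 4.83 FPKM in si-NEAT1_2. Its partner COL4A6 stayed between 0.01 and 0.07 FPKM, so that COL4A5 was 39.1 to 444 times higher. COL4A6 never exceeded 0.470 CPM, so this ratio rests on few reads.

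The other network, anchoring and multiplexin chains came next, each class with a single chain above 1 FPKM. COL18A1, whose C-terminal fragment is endostatin, was at 44.5, 42.4 and 47.6 FPKM in NC and at 43.0, 47.6 and 55.3 FPKM in si-NEAT1_2. COL8A1, a short-chain collagen best known from the vessel wall and the corneal endothelium, was at 43.7, 41.3 and 37.5 FPKM in NC and at 31.7, 21.7 and 33.5 FPKM in si-NEAT1_2. COL7A1, the chain of anchoring fibrils, was at 22.2, 31.1 and 28.6 FPKM in NC and at 33.1, 23.7 and 30.0 FPKM in si-NEAT1_2. Of these only COL8A1 had groups that did not overlap, with every si-NEAT1_2 library below every NC library. The other members of these classes, COL8A2, COL10A1 and COL15A1, had means of 0.095, 0.122 and 0.0517 FPKM.

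**Figure D2:**
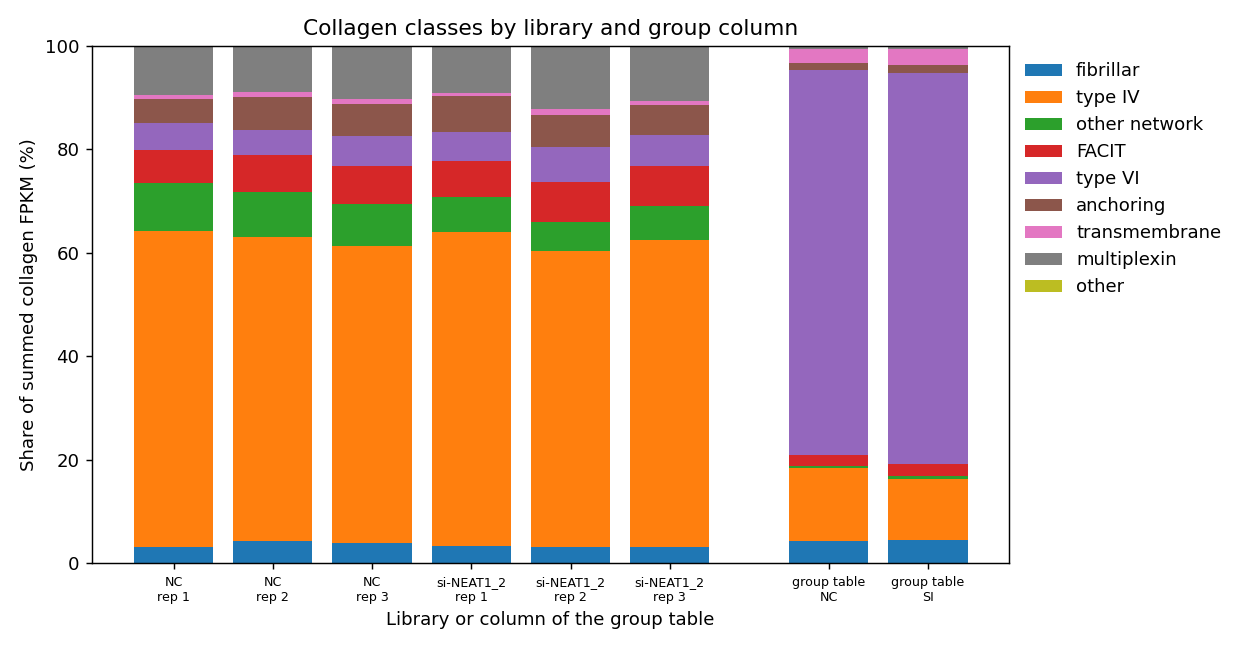
Bars show how the summed FPKM of all 44 collagen genes divides among 9 structural classes, in percent, for each of the 6 libraries and, set apart on the right, for both columns of the group table. Type IV takes 57.3% to 61.0% of each library bar, whereas type VI takes 74.3% and 75.7% of the group table bars.

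Among FACIT collagens 2 of 10 chains were expressed. COL16A1, found near basement membranes, was at 21.5, 24.5 and 26.5 FPKM in NC and at 24.7, 23.9 and 31.5 FPKM in si-NEAT1_2. COL12A1, which binds the surface of type I fibrils, was at 7.0, 8.74 and 7.65 FPKM in NC and at 6.51, 4.82 and 7.72 FPKM in si-NEAT1_2. Both pairs of groups overlapped in FPKM. The other 8 FACIT chains all had means under 1 FPKM, COL9A2 being the highest of them at 0.47 to 1.31 FPKM.

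Type VI collagen needs a long alpha3-type chain beside alpha1 and alpha2, and that chain was nearly missing from the libraries. COL6A2 was at 15.6, 14.4 and 18.1 FPKM in NC and at 15.9, 18.2 and 19.5 FPKM in si-NEAT1_2, and COL6A1 at 8.75, 8.56 and 8.45 FPKM in NC and at 9.81, 8.28 and 10.8 FPKM in si-NEAT1_2. COL6A3 lay between 0.34 and 0.54 FPKM in all 6 libraries, and COL6A1 exceeded it by 18.2 to 25.7 times. The remaining alpha3-type chains, COL6A5 and COL6A6, had means of 0.0217 and 0.00167 FPKM. COL6A2 was above COL6A1 in each library, by 1.62 to 2.196 times.

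Fibrillar collagens, the bulk of connective tissue collagen, took 3.04% to 4.35% of the collagen FPKM, and 4 of their 11 chains were expressed. COL27A1, a cartilage-type fibrillar chain, was at 6.45, 9.68 and 8.31 FPKM in NC and at 7.12, 4.82 and 5.90 FPKM in si-NEAT1_2. The type V chains, which regulate fibril diameter, were both present. COL5A1 was at 3.63, 3.95 and 4.50 FPKM in NC and at 3.84, 2.76 and 3.96 FPKM in si-NEAT1_2, while COL5A2 was at 2.99, 3.19 and 2.97 FPKM in NC and at 2.17, 1.92 and 2.06 FPKM in si-NEAT1_2. All 3 si-NEAT1_2 values of COL5A2 lay below its lowest NC value, whereas COL5A1 and COL27A1 overlapped. COL1A1, the major chain of type I collagen, was only just expressed, at 0.78, 2.18 and 0.90 FPKM in NC and at 1.06, 0.98 and 2.25 FPKM in si-NEAT1_2. Its counts, 142, 197 and 154 in NC and 138, 145 and 196 in si-NEAT1_2, varied less than its FPKM. Its partner COL1A2 had a mean of 0.655 FPKM and COL3A1, the chain of type III collagen, lay between 0.29 and 0.48 FPKM.

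COL17A1, the hemidesmosome collagen of basal epithelial cells, was the only transmembrane chain above 1 FPKM. It was at 3.07, 3.88 and 4.18 FPKM in NC and at 2.34, 3.51 and 3.54 FPKM in si-NEAT1_2. COL13A1 lay between 0.20 and 0.55 FPKM, and COL23A1 and COL25A1 had means of 0.015 and 0.065 FPKM. COL26A1 and COL28A1, which fit no other class, had means of 0.01 and 0.00333 FPKM.

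The comparison of si-NEAT1_2 with NC was then made for the 24 chains with enough counts. For this test levels are given in TMM-normalized CPM, which are not corrected for length and are compared only within a gene. No chain was called at an adjusted p under 0.05 with a fold change of at least 2, as for 0% of all genes tested, and the smallest adjusted p of any collagen was 0.169 (edgeR, Benjamini-Hochberg over 12581 genes). At an unadjusted p under 0.05, 0 of 24 chains were higher, against 11.3% of all genes, and 3 of 24 were lower, against 13.2%. DESeq2 also called none, with the same 3 chains at an unadjusted p under 0.05. All 3 si-NEAT1_2 libraries lay above all 3 NC libraries in CPM for 2 chains, against 15.7% of all genes, and below them for 3 chains, against 14.3%. The median log2 fold change was -0.06 over the 24 chains and 0.01 over all genes, with 11 chains above 0 and 13 below. Without si-NEAT1_2 replicate 1, 5 of 25 chains had an unadjusted p under 0.05: 1 was higher, against 15.2% of all genes in that fit, and 4 were lower, against 18.7%. The higher chain, COL8A2, entered that fit only through its si-NEAT1_2 counts, as given below. Without both libraries least like the others, 6 of 24 had an unadjusted p under 0.05: 4 were higher, against 5.42% of all genes in that fit, and 2 were lower, against 5.07%. The median turned positive, to between 0.04 and 0.09, without NC replicate 2, NC replicate 3, si-NEAT1_2 replicate 1 or si-NEAT1_2 replicate 2.

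**Figure D3:**
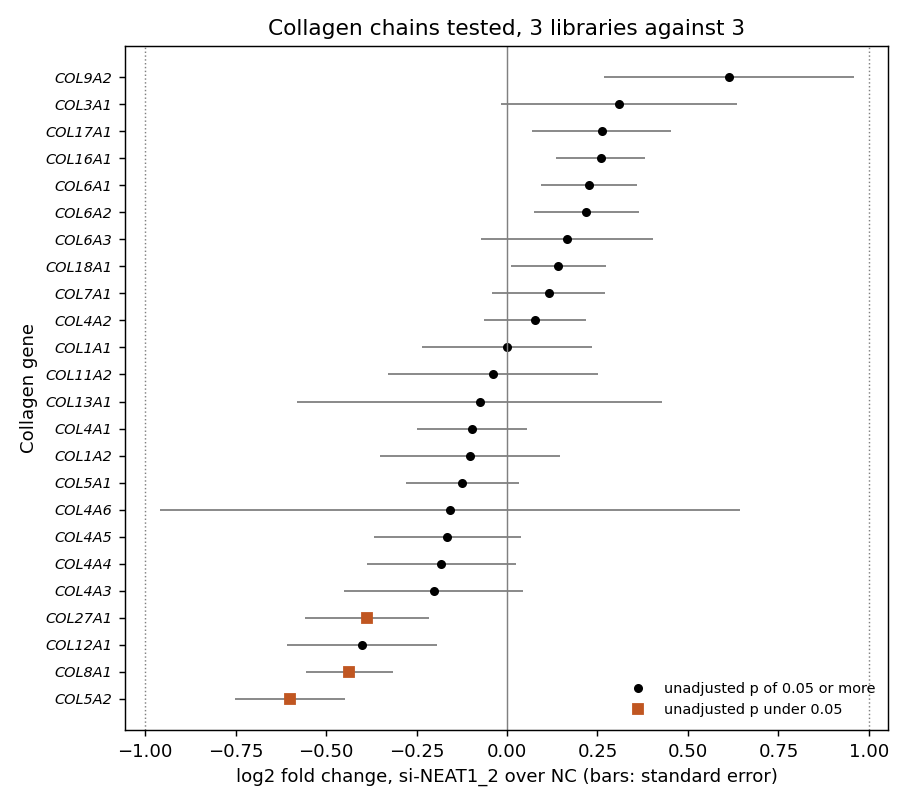
Points give the edgeR log2 fold change of si-NEAT1_2 over NC for the 24 collagen genes tested, with bars for the standard error, orange squares for an unadjusted p under 0.05 and dotted lines at a fold change of 2. COL5A2, COL8A1 and COL27A1 are the 3 squares, all left of 0, and no point reaches a dotted line.

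COL5A2 and COL8A1 gave the smallest p-values of the family, and both were lower after si-NEAT1_2. COL5A2 (chr2:189031896-189225312, minus strand, GENCODE) had 18.5, 19.3 and 18.3 CPM in NC and 13.4, 10.8 and 12.9 CPM in si-NEAT1_2, which is 34.0% lower, a log2 fold change of -0.60 with a standard error of 0.153. Its unadjusted p was 0.00249 and its adjusted p 0.169 (edgeR), and an exact two-sided permutation test gave 0.1, the smallest p that 3 libraries against 3 allow. COL8A1 (chr3:99638475-99799226, plus strand) had 127, 113 and 108 CPM in NC and 90.4, 80.7 and 86.8 CPM in si-NEAT1_2, which is 26.1% lower, a log2 fold change of -0.44 with a standard error of 0.121. Its unadjusted p was 0.0042 and its adjusted p 0.169 (edgeR), with the same permutation p of 0.1. In both genes the 3 si-NEAT1_2 libraries lay below all 3 NC libraries.

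Both differences had the same sign in all 18 alternative fits. These fits reuse the same libraries, and both genes were picked for their small p-values and had groups that did not overlap. The shared sign is therefore no separate support. The log2 fold change of COL5A2 ranged from -0.68 to -0.41 over them and its adjusted p from 0.0309 to 0.549, the lowest with DESeq2. COL8A1 ranged from -0.51 to -0.26, with an adjusted p from 0.0404 with DESeq2 to 0.549. Without si-NEAT1_2 replicate 1 the edgeR adjusted p of COL5A2 was 0.0446, in a fit where 18.7% of all genes were lower at an unadjusted p under 0.05. How many of all genes had an adjusted p under 0.05 in that fit or with DESeq2 was not counted here. No fit reached a 2-fold change for either gene. Collagen transcripts were longer and richer in GC than other tested genes (median 6540 against 3481 bases, 57.4% against 48.4% GC). Correcting for GC and length moved COL8A1 to -0.26 (unadjusted p = 0.0181, edgeR) and COL5A2 to -0.41 (unadjusted p = 0.00317, edgeR).

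The labels carry a library code (L2, L3 or L4) whose meaning is not given, and L4 holds a single si-NEAT1_2 library. Within L2, with 2 NC libraries and 1 si-NEAT1_2 library, the log2 ratio was -0.80 for COL5A2 and -0.46 for COL8A1. Within L3, with 1 library of each group, it was -0.53 and -0.55. Both genes were lower in si-NEAT1_2 in each code that held both groups, but these values rest on 3 and 2 libraries and carry no test. In both genes every si-NEAT1_2 library lay below every NC library, so no other sign was possible within a code. The sign within a code is therefore no separate support.

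**Figure D4:**
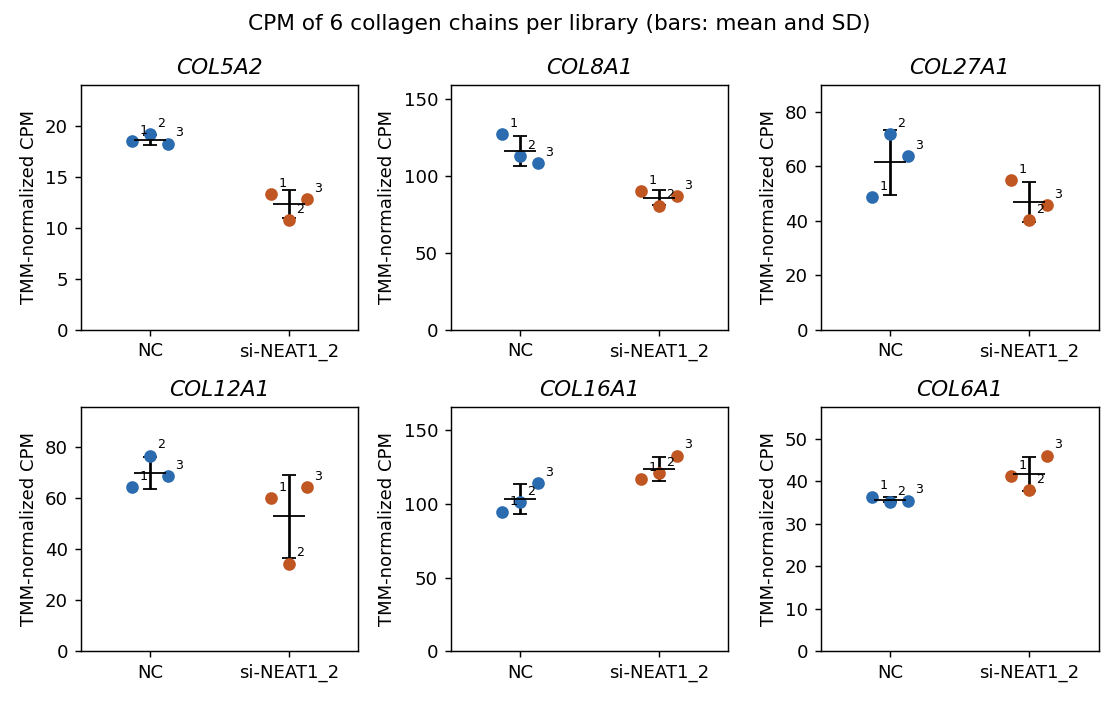
TMM-normalized CPM of 6 collagen genes in each library (points numbered by replicate, NC blue, si-NEAT1_2 orange), with the mean and SD of each group of 3; axes start at 0. COL5A2, COL8A1 and COL12A1 have all si-NEAT1_2 points below the NC points, COL16A1 and COL6A1 all above them, and COL27A1 overlaps.

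COL27A1 and COL12A1 were also lower on average after si-NEAT1_2, with larger p-values. COL27A1 had 48.6, 71.8 and 63.6 CPM in NC and 54.8, 40.2 and 45.7 CPM in si-NEAT1_2 (log2 fold change -0.39, standard error 0.172, unadjusted p = 0.0466, adjusted p = 0.199, edgeR), and its groups overlapped, NC replicate 1 lying below si-NEAT1_2 replicate 1. Its unadjusted p was 0.05 or more when NC replicate 2, NC replicate 3, si-NEAT1_2 replicate 2 or si-NEAT1_2 replicate 3 was left out. COL12A1 had 64.5, 76.7 and 68.8 CPM in NC and 60.01, 34.4 and 64.4 CPM in si-NEAT1_2 (log2 fold change -0.40, standard error 0.207, adjusted p = 0.243, edgeR). NC replicate 1 and si-NEAT1_2 replicate 3, the 2 libraries of code L3, were almost equal, and si-NEAT1_2 replicate 2 lay far below the rest. Without si-NEAT1_2 replicate 2 the log2 fold change of COL12A1 was -0.18, and with GC and length corrected it was -0.12.

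COL16A1 and COL6A1 were the chains whose si-NEAT1_2 libraries all lay above the NC libraries. COL16A1 had 94.7, 101 and 114 CPM in NC and 117, 121 and 133 CPM in si-NEAT1_2 (log2 fold change 0.26, standard error 0.123, adjusted p = 0.216, edgeR). COL6A1 had 36.4, 35.2 and 35.5 CPM in NC and 41.2, 38.0 and 46.1 CPM in si-NEAT1_2 (log2 fold change 0.23, standard error 0.132, adjusted p = 0.288, edgeR). Neither passed the threshold, and with GC and length corrected the log2 fold changes were 0.17 and 0.045. Without si-NEAT1_2 replicate 3, COL6A1 was at 0.15. COL6A2, which forms type VI collagen with COL6A1, had a log2 fold change of 0.22 and turned to -0.018 with GC and length corrected. COL6A3 had a log2 fold change of 0.17 from 3.28 ± 0.55 CPM in NC and 3.69 ± 0.07 CPM in si-NEAT1_2 (SD, n = 3).

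None of the type IV chains differed by more than the spread between libraries. COL4A2 had 960 ± 24.7 CPM in NC and 1012 ± 151 CPM in si-NEAT1_2 (SD, n = 3), and COL4A1 had 696 ± 53.3 and 651 ± 112 CPM. Their log2 fold changes were 0.08 and -0.10, with standard errors of 0.14 and 0.151, so neither was larger than its error. The spread among si-NEAT1_2 libraries was wider than among NC libraries for both genes. COL4A3, COL4A4 and COL4A5 had log2 fold changes of -0.20, -0.18 and -0.16 and adjusted p from 0.585 to 0.617 (edgeR). For COL4A4 the si-NEAT1_2 libraries were at 60.8, 34.3 and 65.3 CPM around an NC mean of 60.7 CPM, and without si-NEAT1_2 replicate 2 the log2 fold change was 0.05. That library was the lowest of the 6 for 10 of the 24 chains, against 33.6% of all genes tested.

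Of the other chains with named values, COL9A2, COL17A1 and COL18A1 had a log2 fold change larger than its standard error. For COL3A1, COL7A1, COL1A1 and COL5A1 the standard error was the larger. COL9A2 had the highest log2 fold change of the family, 0.61 with a standard error of 0.345, from 1.17, 2.17 and 1.33 CPM in NC and 2.92, 1.89 and 2.32 CPM in si-NEAT1_2, and its groups overlapped (adjusted p = 0.275, edgeR). Without NC replicate 2 it was at 0.92. COL3A1 followed at 0.31 (standard error 0.327) and COL17A1 at 0.26 (standard error 0.191). COL18A1, COL7A1, COL1A1 and COL5A1 had log2 fold changes of 0.14, 0.11, 0.00 and -0.12. The 20 chains not tested had at most 18 counts in any library. COL8A2, one of them, entered the fit without si-NEAT1_2 replicate 1, where its log2 fold change was 1.79 (unadjusted p = 0.0317, adjusted p = 0.114, edgeR). It was the higher one of the 5 chains above. COL8A2 had 6, 2 and 5 counts in NC and 4, 18 and 11 in si-NEAT1_2. It thus passed the filter there only through the si-NEAT1_2 libraries kept, and its p in that fit is no support for a difference. In bulk libraries fewer cells of a type and less RNA per cell cannot be told apart.

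For COL17A1 and COL4A5 the direction depended on whether counts or FPKM were used. COL17A1 had a mean of 13.02 CPM in NC and 15.6 CPM in si-NEAT1_2 but of 3.71 and 3.13 FPKM, and COL4A5 had 16.2 and 14.4 CPM but 3.46 and 3.71 FPKM. The transcript length implied by the ratio of count to FPKM ranged from 2849 to 5599 bases for COL17A1 and from 2599 to 6400 bases for COL4A5 across the libraries. For COL6A1 it only ranged from 4201 to 4239 bases.

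The machinery that makes, exports, trims, crosslinks and binds collagen was listed in 45 genes, of which 39 were tested and 0 called. At an unadjusted p under 0.05, 4 were higher, against 11.3% of all genes, and 7 were lower, against 13.2%; the median log2 fold change was 0.14. In the synthesis and folding list 16 of 17 genes were tested, 3 were higher and 1 lower at an unadjusted p under 0.05, and the median was 0.21. P3H4, a partner of the collagen hydroxylases in the endoplasmic reticulum, had 40.7 ± 3.31 CPM in NC and 62.7 ± 7.79 CPM in si-NEAT1_2 (SD, n = 3; log2 fold change 0.62, adjusted p = 0.169, edgeR). COLGALT1, which adds galactose to hydroxylysine, had 225 ± 25.7 and 322 ± 17.6 CPM (log2 fold change 0.51, adjusted p = 0.169, edgeR). Over the 18 alternative fits the log2 fold change ranged from 0.36 to 0.71 for P3H4 and from 0.35 to 0.59 for COLGALT1. They were named for their low p, so the shared sign is no separate support. Both were higher in each si-NEAT1_2 library than in any NC library, as were 10 of the 16 genes tested in this list, against 15.7% of all genes, while 3 of the 16 were lower in each, against 14.3%. Of the 10, P3H1, P3H3, PPIB and FKBP10 kept their sign in only 16 of the 18 alternative fits, and the rest in all 18. The lowest log2 fold changes of these genes were -0.058, -0.084, -0.111 and -0.038. The list's most abundant gene was PPIB, a collagen prolyl isomerase, at a mean of 477 FPKM.

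Of the 5 crosslinking enzymes 1 was higher and 1 lower at an unadjusted p under 0.05, with a median of 0.31. The lower one was LOX, lysyl oxidase itself, at 8.57 ± 0.473 CPM in NC and 5.05 ± 0.614 CPM in si-NEAT1_2 (SD, n = 3; log2 fold change -0.76, adjusted p = 0.169, edgeR). Its log2 fold change ranged from -0.84 to -0.38 over the 18 alternative fits, and LOX too was named for its low p. LOXL2, which crosslinks type IV collagen, was the most abundant at 172 FPKM. The 5 secretion genes had a median of -0.28 with 2 lower, the 6 propeptide removal genes tested a median of 0.11 with 1 lower, and the 7 receptors tested a median of -0.13 with 2 lower, each at an unadjusted p under 0.05 and with none higher. Their most abundant genes were SEC23A (29.5 FPKM), BMP1 (19.7 FPKM) and ITGB1, the beta chain shared by collagen-binding integrins (578 FPKM).

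The group table holds 1 NC and 1 SI value per gene, given by the authors with no replicates, and it described a different collagen profile from the libraries. How the group table was normalized is not given in the sources used here, so its levels are set beside those of the libraries with no test. The counts of the group table differed too. COL6A2 had 15848 counts for NC and 18406 for SI, against 1116 to 1663 per library. COL4A4 had 2 and 6.67, against 819 to 1683. Both values of each gene lay outside the range of the libraries, so these group counts are not means of the library counts. The cause of the difference was not tested. COL6A2 and COL6A1 were the highest collagens of both columns of the group table, at 260 and 130 FPKM for NC and at 276 and 161 FPKM for SI. COL6A3 came next for NC, at 75.1 FPKM, but was at 8.49 FPKM for SI, below COL4A2 and COL4A1 among others. Type VI therefore made up 74.3% and 75.7% of the summed collagen FPKM there, against 4.87% to 6.93% in the libraries. Type IV made up 14.0% and 11.8%, with COL4A2 at 64.7 and 47.4 FPKM and COL4A1 at 19.2 and 17.9 FPKM. COL18A1 was at 4.18 and 3.67 FPKM and COL8A1 at 2.50 and 3.23 FPKM, against means over the 6 libraries of 46.7 and 34.9 FPKM.

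**Figure D5:**
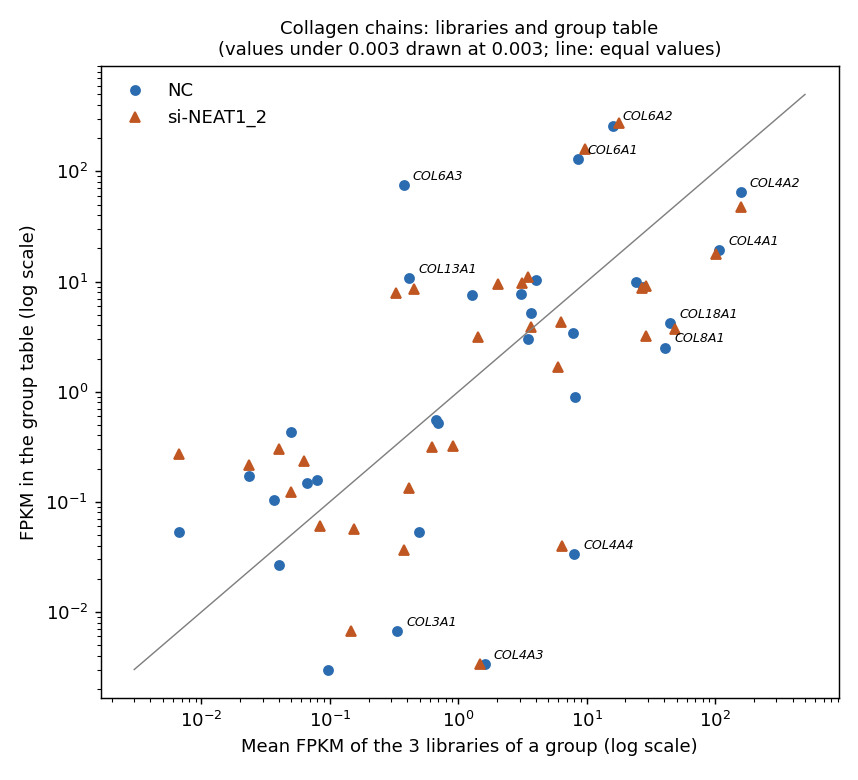
Each collagen gene with a level of at least 0.1 FPKM in either kind of table is placed by its mean FPKM in the 3 libraries of a group (horizontal, log scale) and its FPKM in the group table (vertical, log scale), NC as blue circles and si-NEAT1_2 as orange triangles. COL6A1, COL6A2, COL6A3 and COL13A1 lie above the line of equal values and COL4A3, COL4A4, COL8A1 and COL18A1 below it.

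The chains farthest apart between the tables were COL4A3 and COL4A4. Both were expressed in the libraries, at means of 1.54 and 7.24 FPKM, and were under 0.1 FPKM in both group columns, at 0.00333 and 0.00333 FPKM for COL4A3 and at 0.0333 and 0.04 FPKM for COL4A4. Such a pattern was found for 1.12% of the 10995 genes with a mean of at least 1 FPKM in the libraries. No chain showed the opposite pattern. COL13A1, at most 0.55 FPKM in any library, was at 10.7 and 7.86 FPKM in the group table. Of the 17 expressed chains, 16 had both group values outside the range of the 6 libraries, the exception being COL4A5. Cell type markers also differed between the tables. KRT7 was at 684 to 914 FPKM in the libraries and at 1.66 and 0.693 FPKM in the group table. The other keratins did not share this fall: KRT8 was at 511 and 301 FPKM and KRT18 at 258 and 179 FPKM in the group table. KRT19 went the other way, at 0.18 to 0.70 against 29.8 and 26.7 FPKM. THY1 was at 0.28 to 0.67 against 58.3 and 20.9 FPKM, and LUM at 16.2 to 25.04 against 0.43 and 0.693 FPKM. The part of these markers in the collagen difference was not tested.

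Between the SI and NC columns of the group table, 27 chains had a higher value above 0.1 FPKM. In 3 of them the SI value was at least 2-fold higher, against 5.17% of all genes above that level, and in 3 it was at least 2-fold lower, against 18.3%. The lower ones were COL6A3 (75.1 against 8.49 FPKM, 8.85 times lower), COL1A1 (7.58 against 3.16 FPKM) and COL14A1 (0.147 against 0.06 FPKM). The higher ones were COL11A2, COL24A1 and COL15A1, all under 0.3 FPKM in both columns. COL6A3 and COL1A1 did not differ in this way in the libraries, where their log2 fold changes were 0.17 and 0.00. COL5A2 and COL8A1, the lower chains of the libraries, went from 7.76 to 9.45 and from 2.50 to 3.23 FPKM between the NC and SI columns.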

How the data were processed

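The data were 6 mRNA-seq libraries of K1 cells (3 NC, 3 si-NEAT1_2) and 1 table of group values. The deposited expected counts are the authors' estimates per gene and are not normalized, and FPKM, also deposited by the authors, are relative to transcript length and library size. The paper's methods name TopHat2 and RSEM, while the submitters' processing notes name fastp 0.18.0, Bowtie2 2.2.8, HISAT2, StringTie 1.3.1 and GRCh38; the role of each is not given in the sources used here. Columns of per-sample values without a sample numbered 0. NEAT1 was not analysed here.

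Samples were grouped by their labels. Expected counts of Ensembl genes were rounded to whole numbers, filtered with filterByExpr and normalized by TMM. The quasi-likelihood F-test (edgeR 4.0.16, R 4.3.3) was run on 12581 genes and left out 838 loci without an Ensembl identifier (0.336% to 0.447% of counts). Standard errors are those of the log2 fold change in this fit. A call needed a fold change of 2 or more beside a Benjamini-Hochberg adjusted p under 0.05. Alternatives used DESeq2 1.42.0, limma 3.58.1 on log2(FPKM + 1) or log2(FPKM + 0.1), other filters, no TMM, splines of GC content and length with 5 degrees of freedom, a replicate block, the library code, and the omission of each library. The test was checked on simulated data. Floors for 0 counts cover counting error only.

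Collagen genes named with values were those with a mean of at least 1 FPKM, the 3 highest and 3 lowest log2 fold changes, and those at 1 FPKM or more in one kind of table and under 0.1 in the other; in the lists, the 3 lowest p and the most abundant of each list. Other genes named were chosen after their values were seen. The members and lists were chosen with earlier results of these data known. GENCODE release 29 gave positions, lengths and GC content of all 44 genes, and RefSeq the promoter windows.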

Additional observations from a re-analysis of the deposited data

How the results depend on the processing

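No collagen chain was called in any of 18 alternative fits. The number of chains at an unadjusted p under 0.05 (3) ranged from 2 to 5 when 1 library was left out, and was 6 without NC replicate 2 and si-NEAT1_2 replicate 2 together, an alternative chosen after seeing the data, as was the inclusion of the 838 loci. The median log2 fold change (-0.06) was 0.0687 with the library code as covariate, 0.0811 without both libraries, and -0.154 to 0.0932 when 1 was left out. With the replicate block, 2 chains had an unadjusted p under 0.05, 0 were called and the median was -0.0487. The paper's methods speak of pairs of NC and si-NEAT1_2 cells without saying what a pair shares or which libraries form it, and same-numbered libraries did not deviate together (correlations of -0.290, -0.375 and -0.0199), so the fit without the block was kept. At a minimum of 5 FPKM, 11 chains counted as expressed in each group. In the group table, 0 chains were 2-fold higher with the higher value above 1 FPKM, and 10 were higher and 5 lower with no minimum. The causes were not tested.

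Of 342 log2 fold changes of 19 named chains under the alternatives, 317 kept their direction, 25 reversed and 0 reached a call; 10 chains never reversed. With limma on log2(FPKM + 1) and log2(FPKM + 0.1), COL4A2 was -0.0225 and -0.0227, COL4A5 0.0701 and 0.0853, and COL17A1 -0.196 and -0.251. With GC and length corrected COL6A2 was -0.0185 and COL1A1 -0.0486, and with the replicate block added -0.0173 and -0.0271. COL1A1 was -0.00335 with DESeq2, -0.0600 without TMM and -0.00708 with no filter. When 1 library was left out, COL1A1 ranged from -0.157 to 0.219, COL4A2 from -0.0367 to 0.171, COL4A1 from -0.181 to 0.0311, COL7A1 from -0.0487 to 0.207, COL4A4 from -0.351 to 0.0472 and COL4A5 from -0.321 to 0.0304. Without both replicates 2, COL4A1, COL4A4, COL4A5 and COL4A3 were 0.0498, 0.0675, 0.0710 and 0.0145. Low counts limit the 20 untested chains, and COL4A6 has a standard error of 0.802. With 3 libraries a group, exact permutation tests cannot go below 0.1.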

Other observations

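The transcript length implied by the deposited count and FPKM of a gene varied between libraries for some collagens and hardly for others. Of the 15 chains at 1 FPKM or more in every library, COL4A5 varied 2.46-fold, COL17A1 1.97-fold, COL4A4 1.43-fold and COL12A1 1.41-fold, while COL6A2 and COL6A1 both varied 1.01-fold. For COL8A1 the implied length ranged from 2580 to 3428 bases, against 5705 bases for the annotated transcript. COL1A1 was not at 1 FPKM in every library. At its highest FPKM values its implied length was 3964 bases in NC replicate 2 and 3466 bases in si-NEAT1_2 replicate 3, against 6727 bases annotated.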
